A study of Mus musculus with 12 samples.

Results

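Border-associated macrophages are the macrophages of the brain's outer and inner surfaces, found in the meninges, in the spaces around blood vessels and in the choroid plexus. They were looked for here in sorted myeloid cells of the adult mouse brain, and 161 of 18830 kept cell barcodes were chosen. A barcode was kept with at least 500 genes, at least 1000 unique molecular identifiers (UMIs, each counting 1 captured RNA molecule) and at most 10% mitochondrial UMIs. It was taken as a border-associated macrophage with at least 1 UMI of at least 3 of the 7 genes Mrc1, Pf4, Ms4a7, Cd163, Lyve1, Cbr2 and F13a1. The other 18669 kept barcodes, mostly microglia, are called the remaining barcodes.

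Unlike microglia, which live inside the brain tissue, border-associated macrophages sit where blood, cerebrospinal fluid and brain meet. They take up proteins, lipids and particles through scavenger receptors, and part of them display peptides to CD4+ T cells on MHC class II molecules. In several tissues, macrophages with little MHC class II carry more of the hyaluronan receptor Lyve1 and of other scavenger receptors, whereas those with much MHC class II carry less.

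Live CD45+/CD11b+ cells were sorted from the brains of 12 C57BL/6J males, an inbred strain without engineered alleles, at postnatal day 90, with 1 animal per library. DNC-NONE brains were dissociated mechanically in a cold Dounce homogenizer without inhibitors (replicates 1, 2 and 3), and DNC-INHIB brains in the same way with inhibitors of transcription and translation (replicates 4, 5 and 6). ENZ-NONE brains were digested warm with enzymes without inhibitors (replicates 4, 5 and 6), and ENZ-INHIB brains with enzymes and inhibitors (replicates 1, 2 and 3). The inhibitors were actinomycin D, triptolide and anisomycin. The meninges were stripped off before dissociation as far as possible, so the cells described are those that stayed behind, an unknown part of all border-associated macrophages of these brains. The labels place the libraries in 2 batches, each with all 4 preparations. Batch 1 held DNC-NONE 1 and 2, DNC-INHIB 4, ENZ-NONE 4 and 5 and ENZ-INHIB 1, and batch 2 held the others.

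The deposited libraries held 2118143 to 3654465 UMIs each and 855 to 2185 kept barcodes. DNC-NONE 2 stood apart, with 855 of 2513 barcodes kept. The chosen macrophages together held 263319 UMIs, between 6841 and 46499 per library, and the remaining barcodes 26588186. Of 27914 distinct barcode sequences, 503 occurred in several libraries and 236 were kept in several. No chosen macrophage shared its barcode with another one, and 2 shared it with a remaining barcode of another library.

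The promoters of 4 genes are shown first because the results below turn on them. H2-Aa and H2-Eb1 encode chains of the MHC class II molecules that split the macrophages into 2 sorts, and Fos and Dusp1 were among the genes that differed most between preparations. Each run is the 150 bases upstream of the gene's RefSeq start in GRCm38.p6, written 5′ to 3′ on the gene's strand. Capitals mark ATTGG or CCAAT (the core of the Y box of MHC class II promoters, on either strand) in the first 2 genes, and TGACG or CGTCA (the core of the cyclic AMP response element, on either strand) in the other 2.
H2-Aa (chr17:34287824-34287973, minus strand): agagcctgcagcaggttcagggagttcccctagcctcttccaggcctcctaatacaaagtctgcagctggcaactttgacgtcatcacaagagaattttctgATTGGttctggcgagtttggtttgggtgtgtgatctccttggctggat
H2-Eb1 (chr17:34305717-34305866, plus strand): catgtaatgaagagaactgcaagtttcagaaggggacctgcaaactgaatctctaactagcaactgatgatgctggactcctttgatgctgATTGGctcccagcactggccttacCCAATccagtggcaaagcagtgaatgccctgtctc
Fos (chr12:85473740-85473889, plus strand): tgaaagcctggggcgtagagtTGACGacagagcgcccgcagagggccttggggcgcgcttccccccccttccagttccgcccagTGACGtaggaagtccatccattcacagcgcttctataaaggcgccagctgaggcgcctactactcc
Dusp1 (chr17:26508473-26508622, minus strand): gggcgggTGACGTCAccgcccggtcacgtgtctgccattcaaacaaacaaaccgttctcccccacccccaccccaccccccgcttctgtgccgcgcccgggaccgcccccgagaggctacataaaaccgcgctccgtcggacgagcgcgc

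In the Dusp1 promoter the 2 words overlap and make the palindrome printed as 1 run of capitals. Over 250 bases upstream and both strands, TGACG or CGTCA stood in 8 of the 19 genes with a RefSeq promoter entry among the 26 genes higher in ENZ-NONE macrophages described below (42.1%), and in 5347 of all 27025 promoters (19.8%). ATTGG or CCAAT stood in both MHC class II genes with an entry, H2-Aa and H2-Eb1, and in 10133 of all promoters (37.5%). Each motif also stood in the other set. ATTGG or CCAAT stood in 8 of the 19 genes higher in ENZ-NONE (42.1%). TGACG or CGTCA stood in 1 of the 2 MHC class II genes, H2-Aa, where it is printed in lower case. These matches describe the letters of the windows and are not measured binding sites.

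The 7 genes of the rule were spread unequally over the macrophages. Pf4, a chemokine stored in platelets and made by border-associated macrophages, had a UMI in 148 of the 161 cells, and the mannose receptor Mrc1 in 142. The transglutaminase F13a1 was detected in 124 cells and the membrane protein Ms4a7 in 118. The carbonyl reductase Cbr2 was detected in 71, the haemoglobin scavenger receptor Cd163 in 65 and Lyve1 in 35. In the remaining barcodes, which also hold all cells with 1 or 2 of the genes, Mrc1 had a UMI in 201 of 18669 cells, F13a1 in 120, Ms4a7 in 75, Pf4 in 68, Cbr2 in 21, Cd163 in 16 and Lyve1 in 0 (which allows a level of up to 3 UMIs among 26588186). As UMIs per 1000000 UMIs of the summed cells (CPM), Pf4 stood at 2355 in the macrophages and 4.74 in the remaining barcodes, and Mrc1 at 1405 and 8.39. These genes chose the cells, so the values describe the choice.

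The threshold did not fall in a gap: similar numbers of barcodes lay just inside and just outside it. Of the kept barcodes, 387 carried 1 of the 7 genes, 57 carried 2, 46 carried 3, 47 carried 4, 42 carried 5, 15 carried 6 and 11 carried all 7. The 46 cells just inside had 73484 CPM of Apoe, a lipid carrier, and the 57 just outside had 54758. The chemokine receptor Ccr2, a monocyte gene, was at 272 CPM inside and 896 outside, and the C-type lectin Cd209a, a dendritic cell gene, at 286 and 1218. Cells just outside thus had less Apoe and more Ccr2 and Cd209a, while Cd74, the invariant chain of MHC class II, was at 61058 CPM inside and 66618 outside.

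Genes that took no part in the rule set the macrophages apart as well. Among 1440 genes with at least 100 CPM in the macrophages, the rule genes not left out, 104 were higher than in the remaining barcodes in all 12 libraries. Of these, 27 were higher by at least 10 times. Lower in all 12 libraries were 229 genes. No test was made of this contrast, since the cells were chosen on it. Among genes outside the rule with that pattern, the phospholipid transfer protein Pltp had the largest ratio, at 186 CPM against 2.56 (72.8-fold). The lipoprotein-associated phospholipase Pla2g7 stood at 365 against 5.68 CPM (64.2-fold), and Apoe at 74731 against 1328 CPM (56.3-fold). The endocytic adaptor Dab2 stood at 1170 against 23.7 CPM (49.4-fold).

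Apoe took 58345 to 106097 CPM of the macrophage UMIs in the 12 libraries, with overlapping ranges in the 4 preparations. The lysozyme gene Lyz2, shared by macrophages and monocytes, stood at 15996 CPM in the macrophages and 985 in the remaining barcodes (16.2-fold). Chemokine and receptor genes in the same list were Ccl12, a ligand of Ccr2, at 2727 against 255 CPM (10.7-fold), and the chemokine receptor Ccr1 at 323 against 21.5. Ccl12 was also among the genes higher in ENZ-NONE macrophages (log2 change 2.01), so its pooled level includes that rise. The receptor kinase Axl, which takes part in clearing dying cells, stood at 243 against 12.7 CPM. All 12 genes of an interferon-response list were higher in the macrophages, with a sum of 2742 CPM against 430.

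Of 28 further border macrophage genes listed beside the rule, 25 were higher in the macrophages than in the remaining barcodes. The folate receptor Folr2 stood at 182 against 1.24 CPM and the C-type lectin Clec4n at 346 against 1.35. The growth factor Igf1 stood at 141 against 1.02 CPM. The monocyte chemoattractant Ccl7, which is not one of these 28, stood at 991 against 5.68 CPM. Ccl7 was among the genes higher in ENZ-NONE macrophages (log2 change 3.85), so its pooled level includes that rise. Complement C1q, made by microglia and border macrophages alike, was at similar levels, with C1qa at 8226 and 8742 CPM. The iron storage chains Ftl1 and Fth1 stood at 9293 against 3725 and 5560 against 2258 CPM.

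All 12 microglial markers were lower in the macrophages, but none was absent. The purinergic receptor P2ry12 stood at 885 against 7500 CPM and the membrane protein Tmem119 at 539 against 3891. At least 3 of 6 microglial markers had a UMI in 27 of the 161 macrophages (16.8%) and in 17981 remaining barcodes (96.3%). These 27 cells had a median of 2184 UMIs, the other macrophages 1384.5. DNC-NONE held 10 of them among 56 macrophages and DNC-INHIB 13 among 47, whereas ENZ-NONE held 3 among 28 and ENZ-INHIB 1 among 30. In cells with these markers P2ry12 stood at 2973 CPM, and in those without at 288. Whether such barcodes hold 2 cells or free microglial RNA was not tested.

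Many markers of other cell types were at 0. Of 12 monocyte markers 7 had no UMI in the macrophages, Ly6c2, Vcan, Fn1, S100a4, Chil3 and F10 among them, where 3 UMIs would make 11.4 CPM. Of the 5 monocyte markers that were detected, 3 were higher than in the remaining barcodes. Lyz2, at 15996 against 985 CPM, made up most of their level. The monocyte gene Ccr2 stood at 137 CPM, against 39.1 in the remaining barcodes and 1998 in the 120 remaining barcodes with at least 3 monocyte markers. Of the lymphocyte markers 7 of 8 were at 0, of the endothelial and mural markers 7 of 8, and of the choroid plexus epithelial markers 4 of 5. Of the dendritic cell markers 5 of 10 were at 0, and Cd209a, at 94.9 against 32.3 CPM, was among 3 that were higher than in the remaining barcodes. Of the neuron and glia markers 3 of 8 were at 0 and the other 5 were higher than in the remaining barcodes, with a sum of 60.8 against 20.6 CPM. A single macrophage carried 3 or more monocyte markers and none carried 3 or more dendritic cell markers. The label of border-associated macrophages thus fitted most markers. Exceptions were the microglial ones, the 3 monocyte markers that were higher, and the low levels of dendritic, neuron and glia markers just given.

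**Figure D1:**
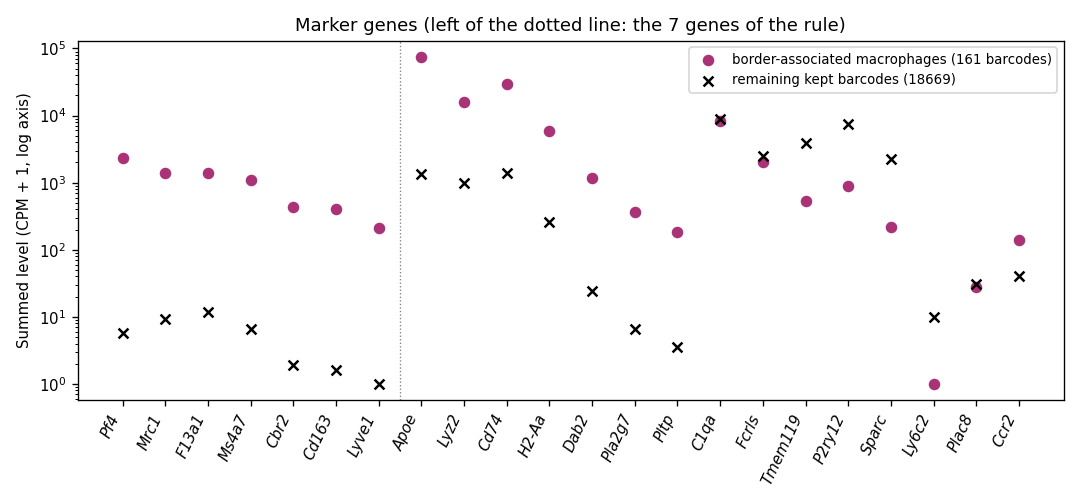
Summed level of marker genes, as CPM + 1 on a log axis, in the 161 border-associated macrophages (circles) and the 18669 remaining barcodes (crosses), with the 7 genes of the rule left of the dotted line. Apoe, Lyz2, Dab2, Pla2g7 and Pltp lie above the remaining barcodes, Tmem119, P2ry12 and Sparc below, and C1qa is at 8226 against 8742 CPM.

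How many of these macrophages each preparation yielded was asked next. In DNC-NONE they were 18 of 1839 kept barcodes (0.979%, 95% exact binomial interval 0.581 to 1.54), 25 of 855 (2.92%, 1.90 to 4.29) and 13 of 1396 (0.931%, 0.497 to 1.59). In DNC-INHIB they were 7 of 1544 (0.453%), 23 of 1952 (1.18%) and 17 of 2185 (0.778%). In ENZ-NONE they were 8 of 1570 (0.510%), 5 of 1119 (0.447%) and 15 of 1748 (0.858%). In ENZ-INHIB they were 10 of 1360 (0.735%), 12 of 1674 (0.717%) and 8 of 1588 (0.504%). DNC-NONE 2 was higher than every other library, and all 3 DNC-NONE libraries were above all 6 enzymatic ones, while DNC-INHIB overlapped both.

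The share was 1.21 ± 0.875% (SD, n = 6) after Dounce and 0.628 ± 0.164% after enzymatic preparation, a difference of -0.579 percentage points (exact two-sided permutation test over the 12 libraries, p = 0.0498). Leaving out 1 library at a time, the call was kept without DNC-INHIB 4 or ENZ-NONE 6 and lost without any other. The difference moved most without DNC-NONE 2, which lost most of its barcodes to the filter, to -0.236 points (exact permutation p = 0.0996), and with permutation within batches p was 0.06 (difference -0.888 points in batch 1 and -0.270 in batch 2). As a share of deposited barcodes the difference was -0.195 points (exact permutation p = 0.147). Without and with inhibitors the share was 1.11 ± 0.917% and 0.728 ± 0.257% (n = 6, difference 0.380 points, exact permutation p = 0.465). With 3 libraries against 3 the smallest p is 0.1, which the pairs of DNC-NONE with either enzymatic group reached (0.3 adjusted over 6 pairs).

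**Figure D2:**
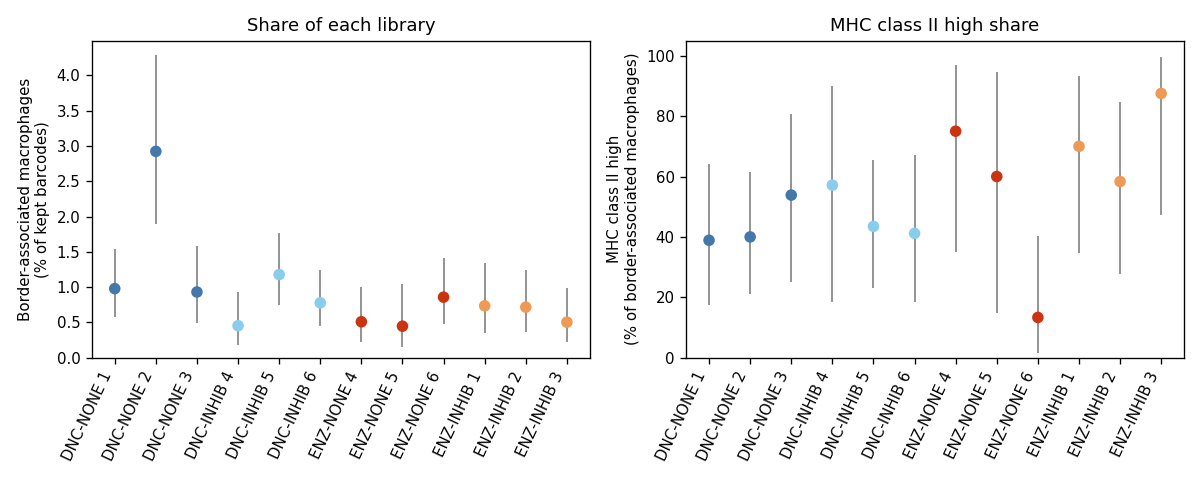
Percent of kept barcodes chosen as border-associated macrophages (left) and percent of these that were MHC class II high, as defined below (right), in each of the 12 libraries; grey lines are 95% exact binomial intervals. On the left DNC-NONE 2, at 2.92%, lies above the other libraries (0.447 to 1.18%), and on the right ENZ-NONE 6 is lowest at 13.3%.

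Within the macrophages, MHC class II genes divided the cells into 2 sorts. A cell was called MHC class II high when H2-Aa, H2-Ab1, H2-Eb1 and Cd74 together made up at least 1% of its UMIs, which 77 of 161 cells did (47.8%). The median share was 9.65% in the high cells and 0% in the 84 low cells, and 53 cells had no UMI of the 4 genes. In all, 13 cells lay between 0.5 and 2%, near the cut. High cells had 59578 CPM of Cd74 and 11610 of H2-Aa, low cells 838 and 60.4, and H2-Eb1 had no UMI in low cells. Among the remaining barcodes 241 (1.29%) passed the same cut. They included 36 of the 120 with at least 3 monocyte markers and 16 of the 17 with at least 3 dendritic cell markers.

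Genes outside the cut also differed between high and low cells, which is given as a description. In high cells, the peptide-loading chaperone genes H2-DMb1 and H2-DMa stood at 1529 against 151 CPM and 1261 against 340, each higher in all 8 libraries with at least 3 cells of both kinds. Ccr2 had 36 UMIs in high cells, in 17 of 77, and 0 in low cells, a level at least 12.2-fold higher with 3 UMIs over all low cells as the floor. The surface glycoprotein Cd52 stood at 1146 against 332 CPM and Axl at 344 against 143.

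In low cells the largest ratios were those of Slc40a1 and Clec4n. Slc40a1, which encodes ferroportin, the exporter of iron from cells, stood at 294 CPM in low and 15.3 in high cells (19.3-fold). Clec4n stood at 634 against 53.5 CPM (11.9-fold) and was higher in low cells in all 8 libraries. Lyve1 stood at 362 against 61.1 CPM (5.93-fold), also in all 8, and 29 of the 35 cells with a Lyve1 UMI were low (82.9%). Folr2 stood at 309 against 53.5 CPM, and the galactose lectin Clec10a at 226 against 38.2.

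Of the other rule genes, Pf4 stood at 3155 CPM in low and 1544 in high cells, and Mrc1 at 1766 and 1039. Cd163 was detected in 44 low and 21 high cells, and Cbr2 in 46 and 25. The chemokines Cxcl2, Ccl3, Ccl2 and Ccl4 were among the 10 genes with the largest ratio in low cells, but over the other 9 libraries, without ENZ-NONE, Ccl2 stood at 104 CPM in low and 132 in high cells, and the other 3 had no UMI in low cells. ENZ-NONE 6 held 13 low and 2 high cells and most of these chemokine UMIs.

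**Figure D3:**
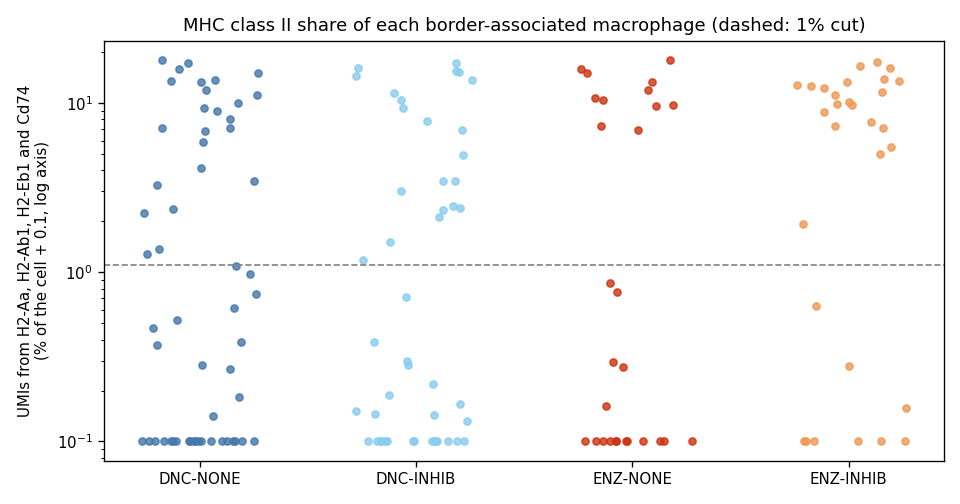
Percent of each macrophage's UMIs from the 4 MHC class II genes, plus 0.1, on a log axis, by preparation; each point is 1 cell, spread sideways at random, and the dashed line is the 1% cut. Few points lie near the line, and ENZ-INHIB holds 21 points above it and 9 below.

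The share of MHC class II high cells varied most after enzymatic preparation. In DNC-NONE 38.9, 40.0 and 53.8% of the macrophages were high, and in DNC-INHIB 57.1, 43.5 and 41.2%. ENZ-NONE gave 75.0, 60.0 and 13.3%, and ENZ-INHIB 70.0, 58.3 and 87.5%. Each percentage rests on 5 to 25 cells. The mean was 60.7 ± 25.5% after enzymatic and 45.8 ± 7.77% after Dounce preparation (n = 6, difference 14.9 points, exact permutation p = 0.197). It was 23.0 points in batch 1 and 6.89 in batch 2. Without ENZ-NONE 6 the difference was 24.4 points (exact permutation p = 0.00433, the smallest possible for these libraries), so this 1 library decided the call. ENZ-NONE 6 was the only ENZ-NONE library of batch 2, so a property of the library and one of the batch cannot be told apart. Between libraries without and with inhibitors the difference was -12.8 points (46.8 ± 21.2 against 59.6 ± 17.3%, n = 6, exact permutation p = 0.284).

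Whether warm digestion without inhibitors changed gene expression in these macrophages was examined with 19 genes, mostly immediate early and histone genes, that the study had listed as its activation signature from a separate experiment on unsorted cells of other brains. These genes made up 2.51, 0.979 and 2.34% of the macrophages' UMIs in ENZ-NONE 4, 5 and 6. In the other 9 libraries they made up 0.0543 to 0.174%. The ENZ-NONE libraries thus lay above all others, by 1.84 percentage points on average (1.94 ± 0.837, n = 3, against 0.0988 ± 0.0398, n = 9; exact permutation p = 0.00909, the smallest that 220 splits can give; 0.0222 within batches).

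Single cells gave the same order. UMIs of at least 4 of the 19 genes were found, after thinning each cell to 1000 UMIs, in 20 of 28 ENZ-NONE macrophages and in 0 of 133 others. Of the other macrophages 39 had no UMI of the list at all, and of the ENZ-NONE ones 0. The signature was present in both sorts of macrophage, in 9 of 11 MHC class II high and 11 of 17 low ENZ-NONE cells. Among the remaining barcodes of ENZ-NONE 1758 of 4409 cells (39.9%) passed the same count.

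Relative to the remaining barcodes of the same library, the macrophages' signature was higher in ENZ-NONE. The remaining barcodes had 0.623, 0.588 and 1.33% of their UMIs on the list in ENZ-NONE and 0.0965 to 0.267% elsewhere. The log2 ratio of macrophages to remaining barcodes was 2.01, 0.74 and 0.81 in ENZ-NONE and ran from -1.05 to 0.34 in the other 9 libraries, without overlap. The ratio differed by 1.56 on the log2 scale (1.19 ± 0.714, n = 3, against -0.375 ± 0.464, n = 9; exact permutation p = 0.00909, the smallest possible; 0.0222 within batches).

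**Figure D4:**
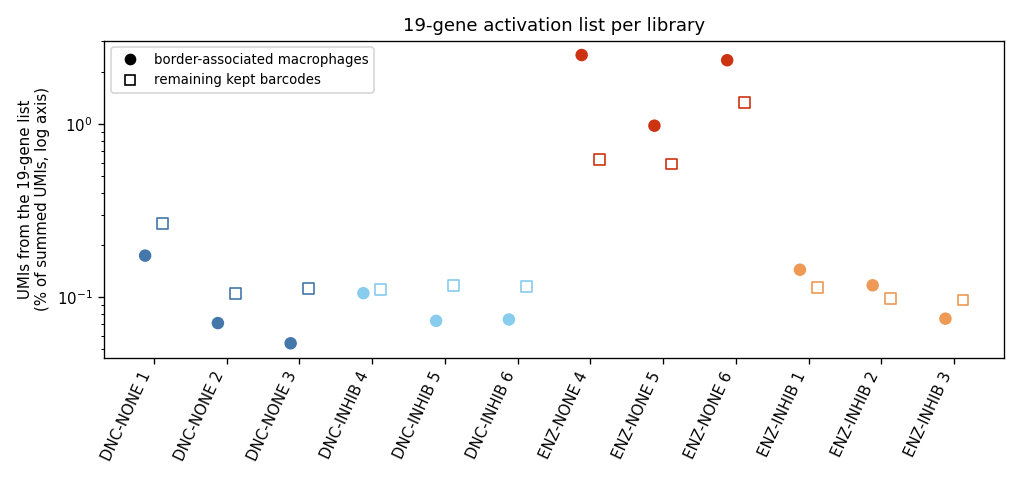
Percent of summed UMIs from the 19-gene activation list, on a log axis, in the border-associated macrophages (filled circles) and the remaining barcodes (open squares) of each library. The ENZ-NONE macrophages, at 0.979 to 2.51%, lie above the remaining barcodes of their libraries, at 0.588 to 1.33%, and above the other 9 libraries.

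Gene by gene, counts summed over the macrophages of each library were tested with edgeR across 1966 genes with at least 20 UMIs in all and UMIs in at least 3 libraries. A gene was called at a Benjamini-Hochberg adjusted p under 0.05 with a log2 fold change beyond 0.58. Against the mean of the other 3 preparations, 26 genes were called in ENZ-NONE macrophages (1.32% of those tested), and all 26 were higher. The 3 ENZ-NONE libraries lay above all other 9 for 16 genes (0.814%), of which 11 were among the 26 called. Immediate early genes held 10 of the calls, with 10 of 14 tested members higher and a median log2 change of 2.66, where the median of all genes was -0.16. Chemokines held 6 of 12 tested (median 1.85), heat shock genes 1 of 8 (0.51) and histone genes 2 of 3 (1.65). The full lists held 28 immediate early, 15 chemokine, 14 heat shock and 11 histone genes. The filter counted the UMIs of all libraries, so a gene could enter the test mainly through its ENZ-NONE UMIs. These shares and medians of tested genes are therefore not independent of the ENZ-NONE change.

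Fos, a subunit of the AP-1 transcription factor (GRCm38, chr12:85473890-85477273, plus strand), had the largest change. It stood at 5259, 3216 and 6444 CPM in ENZ-NONE 4, 5 and 6 and at 0 to 75.5 CPM in the other 9 libraries, which held 5 UMIs in all. All 3 ENZ-NONE libraries were far above the rest, with a log2 change of 7.39 ± 0.39 (SE; edgeR adjusted p = 2.8e-29). A Fos UMI was present in 22 of 28 ENZ-NONE macrophages and 5 of 133 others, and in 25.9% of the remaining ENZ-NONE barcodes.

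The other AP-1 subunits followed. Jun stood at 5259, 2339 and 5107 CPM in ENZ-NONE and at 83.7 to 870 elsewhere (log2 change 3.69 ± 0.30). Junb stood at 4355, 1754 and 4093 against 0 to 376 CPM (3.99 ± 0.33), and Jund at 4355, 2777 and 4134 against 0 to 418 (4.26 ± 0.32). For each of the 3 genes the groups did not overlap, and the edgeR adjusted p was 5.4e-18 or below.

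Brakes on the same response moved with it. Dusp1, a phosphatase that switches off MAP kinases (GRCm38, chr17:26505590-26562128, minus strand), stood at 4848, 585 and 3080 CPM in ENZ-NONE and at 0 to 251 elsewhere (log2 change 5.88 ± 0.44). This GENCODE span reaches past the RefSeq start used for the Dusp1 promoter above, so that promoter window lies inside it. Zfp36, which brings about decay of cytokine mRNAs, stood at 986, 146 and 1054 against 0 to 70.9 CPM (4.66 ± 0.57), and the early gene Ier2 at 822, 731 and 892 against 0 to 383 (2.82 ± 0.46). The antiproliferative gene Btg2 (log2 change 2.49) and the transcription factors Klf2 (2.11) and Klf6 (1.67) completed the 10. The calls of Klf2 and Klf6 were lost without ENZ-NONE 6, and that of Klf6 also without DNC-NONE 1 and without the macrophages with microglial markers.

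Gadd45g, a stress-inducible regulator of the cell cycle and of kinase signalling (GRCm38, chr13:51846678-51848468, plus strand), stood at 1233, 2339 and 1783 CPM in ENZ-NONE and at 0 to 97.8 elsewhere, with 5 UMIs in all other libraries (log2 change 6.19 ± 0.49, edgeR adjusted p = 1.3e-18). It was at 0 in all 3 DNC-NONE libraries, so ENZ-NONE was at least 47.7-fold higher than DNC-NONE with 3 UMIs over that group as the floor. Hspa1a, an inducible heat shock protein, stood at 1808, 0 and 1175 CPM in ENZ-NONE and had 3 UMIs elsewhere (5.97 ± 0.61). Its reads are shared with the near-identical Hspa1b, so its count is uncertain. H3f3b, a gene of histone H3.3, stood at 9697, 4970 and 5512 against 1467 to 2542 CPM (1.65 ± 0.23) without overlap.

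Chemokines rose unevenly among the ENZ-NONE libraries. Ccl4, an inflammatory chemokine, stood at 575, 146 and 2878 CPM in ENZ-NONE, had no UMI in any Dounce library and 5 UMIs in ENZ-INHIB (log2 change 6.56 ± 0.61). Ccl3, of the same family, stood at 329, 0 and 2634 CPM, with 4 UMIs in the other 9 libraries (5.96 ± 0.59). The Ccr2 ligands Ccl2, Ccl7 and Ccl12 stood at 329, 0 and 5512, at 2383, 0 and 7011, and at 6163, 292 and 11834 CPM, where the other 9 libraries reached 313, 887 and 4318. The neutrophil attractant Cxcl2 had UMIs in ENZ-NONE 6 but not in ENZ-NONE 4 or 5 (0, 0 and 1337 CPM). ENZ-NONE 6 was the highest library for each of the 6 genes, and ENZ-NONE 5 lay within or below the range of the other preparations for each. ENZ-NONE 5 held only 5 macrophages with 6841 UMIs, where 1 UMI makes 146 CPM, so its values of 0 do not show absence.

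Few cells carried part of this signal. Of the ENZ-NONE macrophages' Ccl4 UMIs 61 of 79 (77.2%) came from 1 cell, of Cxcl2 22 of 33 (66.7%), of Ccl2 62 of 140 (44.3%) and of the histone gene Hist1h2bc 15 of 25 (60.0%). Ccl7, by contrast, had a UMI in 42.9% of ENZ-NONE macrophages and in 0.612% of the remaining ENZ-NONE barcodes. ENZ-NONE 6 held 97.1% of the Ccl2 and 94.2% of the Ccl3 UMIs of the group. Without this library 12 genes were called, 11 of them among the 26: Btg2, Ccl7, Dusp1, Fos, Gadd45g, H3f3b, Hspa1a, Ier2, Jun, Junb and Jund. As the only ENZ-NONE library of batch 2, ENZ-NONE 6 cannot be told apart from that batch here.

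The remaining calls lay outside these groups. They included the growth factor-like matrix protein Cyr61 (log2 change 4.44), the transcriptional co-regulator Cited2 (2.03), the lipopolysaccharide co-receptor Cd14 (1.65), the transcription factor Cebpb (1.56) and Wfdc17 (1.28). Cd14 stood at 1644, 439 and 3891 CPM in ENZ-NONE and at 342 to 2646 elsewhere, so its groups overlapped, and its call was lost without ENZ-NONE 6, as were those of Cited2 and Cebpb. The Wfdc17 call was lost without DNC-NONE 3, DNC-INHIB 4 or 5, or ENZ-NONE 5 or 6, without the macrophages with microglial markers and with DESeq2.

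Other listed genes passed the test in neither direction. None was called of 27 border macrophage genes tested outside the rule (median log2 change 0.22), 9 scavenger receptors (0.09), 11 complement genes (-0.18), 9 iron genes (0.24), the 4 MHC class II genes (0.12), 10 microglial markers (-0.32), 8 interferon-response genes (-0.79), 3 monocyte markers or 2 cytokines. Apoe, for instance, differed by -0.22 ± 0.22 on the log2 scale. The 7 rule genes were not called either (median -0.06), but every cell was chosen for having UMIs of at least 3 of them, so nothing is read from this. At these counts the test could miss changes: the median SE over all genes was 0.72.

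Of the 19-gene list, 7 of 8 tested genes were called higher, and of the 25 genes the study derived from these same myeloid libraries 11 of 15, which is not independent of the samples. Both counts cover tested genes only, which ENZ-NONE UMIs could help through the filter.

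**Figure D5:**
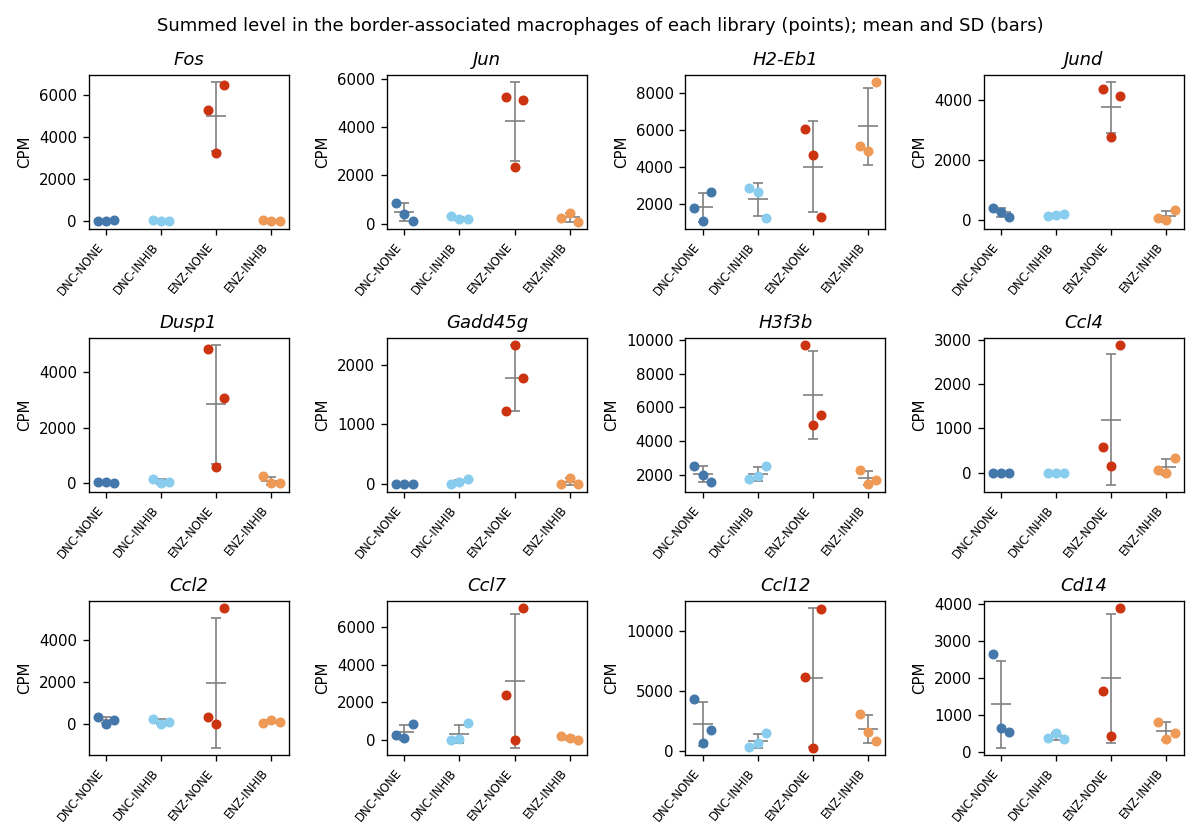
CPM of 12 genes in the macrophages of each library, summed over cells (points), with the mean and SD of each preparation (grey, n = 3). Fos, Jun, Jund and Gadd45g are high in all 3 ENZ-NONE libraries, Ccl2 and Ccl4 mainly in ENZ-NONE 6, and H2-Eb1 is higher in all 3 ENZ-INHIB libraries than in the 6 Dounce libraries.

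The pairs of preparations were compared in the same edgeR fit. ENZ-NONE macrophages had 19 genes called against DNC-NONE (0.966%), 23 against DNC-INHIB (1.17%) and 23 against ENZ-INHIB (1.17%). These comparisons share the ENZ-NONE libraries. All calls were higher in ENZ-NONE except P2ry12 (log2 change -2.38, edgeR adjusted p = 0.00167) and Tmem119 (-1.97, 0.0399) against DNC-INHIB. P2ry12 stood at 1736, 2129 and 319 CPM in DNC-INHIB and at 411, 146 and 243 in ENZ-NONE. DNC-INHIB also held the most macrophages with microglial markers, 13 of 47 against 3 of 28, and without such cells from any preparation neither gene was called. The P2ry12 call was lost without DNC-INHIB 5, and the Tmem119 call without DNC-INHIB 4 or 5 or ENZ-NONE 5 or 6.

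DNC-NONE and DNC-INHIB macrophages had 0 called genes between them (0%), with 56 of 1966 at an unadjusted p under 0.05, and DESeq2 also called 0. ENZ-INHIB macrophages differed from DNC-INHIB in 2 genes (0.102%) and from DNC-NONE in 2 (0.102%). H2-Eb1 was higher in ENZ-INHIB in both comparisons. It stood at 5144, 4889 and 8617 CPM in ENZ-INHIB, at 2868, 2688 and 1241 in DNC-INHIB and at 1811, 1078 and 2653 in DNC-NONE, so ENZ-INHIB lay above both without overlap. The log2 changes were 1.47 (edgeR adjusted p = 0.0446) and 1.73 (0.00423). The other 3 MHC class II genes were not called but changed in the same direction. Against DNC-INHIB the log2 changes were 1.18 for H2-Ab1, 1.15 for H2-Aa and 0.87 for Cd74, and against DNC-NONE 1.05, 0.99 and 0.62. ENZ-INHIB also had the highest share of MHC class II high cells, 21 of 30, and more such cells cannot be told apart here from more H2-Eb1 per cell. The call against DNC-INHIB was lost without any 1 of the 6 libraries, the call against DNC-NONE without DNC-NONE 1 or 2 or ENZ-INHIB 3, and both without the macrophages that carried microglial markers.

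The other gene called against DNC-INHIB was P2ry12 (log2 change -2.13, edgeR adjusted p = 0.0446), a call kept only without DNC-INHIB 6 among the fits that left out 1 library. Against DNC-NONE it was Ccl8, a chemokine of border macrophages, with 14, 22 and 0 UMIs in DNC-NONE and none in ENZ-INHIB (edgeR adjusted p = 0.0141). Its level was at least 6.96-fold lower in ENZ-INHIB, with 3 UMIs over that group as the floor, and 1 of the 3 DNC-NONE libraries had none either. This call was kept without DNC-NONE 3 and lost without any other of the 6 libraries.

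The ENZ-NONE change was also tested for a difference between the macrophages and the remaining barcodes of the same libraries, with library as a block. In the remaining barcodes 21 of the 1966 genes were called in ENZ-NONE (1.07%), all higher. The difference itself was called for 6 genes (0.305%), each with the larger change in the macrophages. Gadd45g changed by 6.19 in the macrophages and 1.75 in the remaining barcodes on the log2 scale (difference in the joint fit 6.57 ± 0.88, edgeR adjusted p = 3.3e-08). Junb changed by 3.99 and 2.16 (1.90 ± 0.34, 1.5e-04), and Jund by 4.26 and 2.66 (1.66 ± 0.35, 0.00386). Cd14 changed by 1.65 and 0.22, H3f3b by 1.65 and 0.41, and Ccl4 by 6.56 and 3.51. The joint fit gave a difference of 6.52 for Ccl4, and both this value and that of Gadd45g exceed the difference of the separate changes and rest on groups at 0 UMIs, so their size is uncertain. Leaving out each library in turn, the calls of Gadd45g and Junb were never lost, those of Jund and H3f3b were lost without ENZ-NONE 4, and those of Cd14 and Ccl4 were kept in 3 of 12 and 4 of 11 such fits.

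Fos and Jun did not pass this test. Fos changed by 7.39 in the macrophages and 7.54 in the remaining barcodes (difference 0.34 ± 0.91), and Jun by 3.69 and 3.35 (0.37 ± 0.32). Dusp1 changed by 5.88 and 6.57 (-0.46 ± 0.68). With these SEs a like change in both kinds of cell was not shown.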

How the data were processed

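Myeloid cells of 12 mice were measured with the 10X Genomics 3′ kit, version 2. The authors deposited raw UMI counts per gene and called cell (31053 genes, 1 matrix per animal), made with Cell Ranger 3.0.0 against mm10 (GRCm38), neither normalised nor passed through the study's cell filters. Whether counting used strand is not given in the sources used here. No doublet caller was run.

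The cells and gene lists were chosen with earlier results of these data known. Counts were summed per library over the chosen macrophages and, separately, over the remaining barcodes. CPM divides a gene's summed count by the summed UMIs. Sums were tested with edgeR 4.0.16 (TMM scaling, glmQLFit, glmQLFTest, group as the only term, R 4.3.3), with DESeq2 1.42.0 as an alternative. Each SE of a log2 change was derived from the test, as the absolute change divided by the square root of its F statistic. Such an SE is unreliable where the change is near 0 or a group has no UMIs. Values per library were compared by two-sided exact permutation tests that enumerated every split of the libraries (numpy 2.4.6). For comparisons by thinning, cells were cut at random to 1000 UMIs. Binomial intervals are 95% Clopper-Pearson and cover counting error only. The 19-gene activation list is the one in the study's supplementary table, which has 1 gene more than its main text counts. A group at 0 was given a floor of 3 UMIs.

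Genes named were the 20 with the largest ratio to the remaining barcodes (at least 100 CPM, higher in 12 of 12 libraries), the 10 each way between MHC class II high and low cells (at least 200 CPM), up to 10 called genes each way per comparison, and members of 26 gene lists, by level. Other genes shown were chosen after their values were seen. On simulated counts with the real means of the 1966 genes in the comparison of ENZ-NONE with the other preparations, 65.3% of genes changed 4-fold and 98.0% of those changed 8-fold were called. In the same simulation 13 unchanged genes were called. It used a fixed spread, the same for every gene and not estimated from these libraries, so its shares may not hold for the real counts. Numbers shared by the replicates of DNC-NONE and ENZ-INHIB, and of DNC-INHIB and ENZ-NONE, do not come from shared animals.

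Alternatives were other filters on genes and cells, other thresholds of the rule, leaving out macrophages with microglial markers, batch as a term, no TMM scaling, a replicate block and leaving out each library. Some were chosen after seeing the data: the filterByExpr filter, no TMM scaling, the rule on thinned cells and the unblocked fit of 2 groups. Promoters came from RefSeq tables (GRCm38.p6) and gene positions from GENCODE (GRCm38, 1-based). Some genes are not reported here.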

Additional observations from a re-analysis of the deposited data

Results flagged for a closer look

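The response of the macrophages to preparation in ENZ-NONE differed from that of the remaining barcodes in the same libraries. The log2 ratio of their 19-gene signature shares was 1.56 higher in ENZ-NONE than in the other 9 libraries (exact permutation test), and 6 genes differed in edgeR's test of the interaction: Gadd45g by 6.57, Ccl4 by 6.52, Junb by 1.90, Jund by 1.66, Cd14 by 1.40 and H3f3b by 1.24 on the log2 scale. The sizes for Gadd45g and Ccl4 rest on groups at 0 UMIs (DNC-NONE for both, DNC-INHIB also for Ccl4) and are uncertain. Of the Ccl4 UMIs in ENZ-NONE macrophages, 77.2% came from 1 cell.

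Barcodes outside the cell filter also carried the rule genes. Of 9596 such barcodes, 70 (0.729%) held at least 3 of the 7, with a median of 787.5 UMIs. Of these 70, 69 fell under 1000 UMIs and 48 under 500 genes. They were 28 in DNC-NONE, 10 in DNC-INHIB, 10 in ENZ-NONE and 22 in ENZ-INHIB, and DNC-NONE 2 held 22 of them.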

How the results depend on the processing

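The lower share of border-associated macrophages after enzymatic preparation (-0.579 points) kept its direction under every alternative and missed 0.05 under each one that used all 12 libraries. It was -0.642 points with at least 2 of the 7 genes, -0.480 with at least 4, -0.467 with the rule on thinned cells, -0.195 over deposited barcodes, -0.206 with at least 300 genes and 500 UMIs, -0.343 without macrophages with microglial markers and -0.579 with permutation within batches. Without each library in turn it ran from -0.730 to -0.236 points, the last without DNC-NONE 2, and passed 0.05 in 2 of these 12 fits, those without DNC-INHIB 4 (exact permutation p = 0.00866) or ENZ-NONE 6 (0.0433). The MHC class II difference ran from 9.58 to 24.4 points, the last without ENZ-NONE 6. The signature share in ENZ-NONE macrophages kept its direction and its side of 0.05 under all alternatives run over both batches (1.56 to 2.32 points without each library).

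Genes called in ENZ-NONE against the other preparations, DNC-NONE, DNC-INHIB and ENZ-INHIB were 26, 19, 23 and 23. With edgeR's filterByExpr, which left fewer genes to test, they were 16, 8, 14 and 12, and with DESeq2 13, 9, 11 and 8. Without each library they ran from 12 to 28, from 12 to 25, from 15 to 26 and from 9 to 27, each lowest without ENZ-NONE 6. Between DNC-NONE and DNC-INHIB they were 0 to 1, the latter without DNC-NONE 2.

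The 2 genes called in ENZ-INHIB against DNC-INHIB became 1 with no filter, 0 with filterByExpr, 6 with at least 4 of the 7 genes, 0 without macrophages with microglial markers, 6 with the rule on thinned cells, 4 with batch as a term and 0 with DESeq2, and 0 to 2 without each library. The 2 against DNC-NONE became 1 with no filter, 0 with filterByExpr, 4 with at least 4 genes, 0 without macrophages with microglial markers and 0 with DESeq2, and 0 to 2 without each library. The 6 genes whose change differed from that of the remaining barcodes became 2 with no filter and 3 to 7 without each library, lowest without ENZ-NONE 4. Where no construction of the alternative shows it, the cause was not tested.

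Replicate numbers are shared by DNC-INHIB and ENZ-NONE and by DNC-NONE and ENZ-INHIB, but same-numbered libraries did not deviate together (Pearson's r across 1966 genes -0.00136 to 0.0529). With a replicate block on the 2 groups 18 and 3 genes were called, and without it on the same 2 groups 19 and 1.

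With 5 to 25 macrophages per library, genes at a few UMIs could not be compared, and a single cell can set a library's value. No gene named as called changed its direction under any alternative run for it.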
